A study of Mus musculus with 6 samples.

Results

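The genes described here are mouse protein-coding genes named Zfp and a number, in mature brown fat of mice labelled PHOSPHO1 knockout (KO) and wild type (WT). The annotation held 344 such symbols after Zfp36, Zfp423, Zfp516 and Zfp652 were set aside, among 37620 gene identifiers in all. The members were chosen by their summed count, at least 100 over the 6 libraries, which kept 217 symbols and left out 127, and all 217 also passed the filter for testing among 12068 genes. That minimum uses the total count and can be met through 1 group alone, so the counts and medians over the 217 genes are descriptions of these genes. Just inside the minimum lay Zfp697, Zfp704 and Zfp709 with 102 counts each, and just outside lay Zfp14 with 99 and Zfp446 with 96.

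RNA was sequenced from 3 KO-labelled and 3 WT-labelled libraries, all from 6-week-old animals on a C57BL/6 background. Each library was a pool of 3 mice, so 1 library is 1 replicate and differences between animals inside a pool cannot be seen. Adipocytes were collected as the floating layer after collagenase digestion of minced tissue, and the labels give neither the sex of the animals nor the way the allele was made. Totals were 10576800 to 13750632 counts in KO-labelled libraries and 12132987 to 14239307 counts in WT-labelled libraries. Phospho1 itself, the phosphatase gene named as deleted, had 18, 15 and 17 counts in KO-labelled libraries, against 13, 5 and 5 counts in WT-labelled libraries. The gene's counts were thus not lower under the KO label and do not separate the groups in the labelled direction, so groups are named below by their labels and every direction rests on those labels. Per-gene counts cannot show whether a shorter or altered transcript was read.

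A C2H2 zinc finger is a short loop of protein held around a zinc ion by a pair of cysteines and a pair of histidines, and fingers in a row read DNA bases or, in some proteins, RNA. Many genes of this family also carry a KRAB box, which recruits the corepressor Trim28 and the histone methyltransferase Setdb1 to silence retroelements and imprinted regions. KRAB zinc finger genes arose by tandem duplication and lie in clusters of related genes, and a smaller group carries a SCAN domain, with which such proteins pair. Other Zfp genes share only the name and one or a few fingers, and work in splicing, ribosome assembly or ubiquitin ligation.

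The repeat that defines the family is shown for 7 genes, 5 of those with the largest decreases and 2 KRAB genes without one, as 1 finger with the linker before it. Each line is read 5′ to 3′ along the coding strand from GENCODE release M21 transcripts on GRCm38, and the capitals mark the 15 bases of the linker.
Zfp40: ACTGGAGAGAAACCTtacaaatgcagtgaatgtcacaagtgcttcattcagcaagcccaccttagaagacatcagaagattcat
Zfp942: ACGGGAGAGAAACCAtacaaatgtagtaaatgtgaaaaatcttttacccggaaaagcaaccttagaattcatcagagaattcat
Zfp677: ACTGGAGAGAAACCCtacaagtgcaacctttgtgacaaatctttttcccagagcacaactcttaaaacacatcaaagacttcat
Zfp948: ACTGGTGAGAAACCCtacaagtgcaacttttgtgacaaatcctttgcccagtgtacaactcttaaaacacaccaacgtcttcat
Zfp62: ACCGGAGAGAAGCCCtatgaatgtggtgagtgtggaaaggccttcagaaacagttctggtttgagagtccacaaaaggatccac
Zfp954: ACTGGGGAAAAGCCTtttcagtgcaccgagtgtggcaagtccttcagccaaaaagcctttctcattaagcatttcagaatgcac
Zfp560: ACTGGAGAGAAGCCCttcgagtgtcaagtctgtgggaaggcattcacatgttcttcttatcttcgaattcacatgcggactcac
Zfp40, Zfp942, Zfp677 and Zfp948 lie on chromosome 17, Zfp62 on chromosome 11, Zfp954 on chromosome 7 and Zfp560 on chromosome 9. Zfp677, Zfp948 and Zfp62 lie on the plus strand and the other 4 genes on the minus strand. Zfp942 shared 75% of the 84 bases with Zfp40, and the other 5 units shared 53.6% to 65.5%. Each is the first unit of its gene with both cysteine and both histidine codons in place and another linker after it, and 116 of the 217 members held at least 1 such unit of 84 bases.

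Most Zfp members had lower fitted levels in the KO-labelled libraries. Of the 217 members, 55 fell and 0 rose at an adjusted p under 0.05 in edgeR's quasi-likelihood test with Benjamini-Hochberg adjustment over all 12068 genes. That is 25.3% of the members lower, beside 7.52% of all tested genes lower and 1.63% higher. The median log2 fold change of KO over WT was -0.78 for the members, against 0.03 for all tested genes. In all, 182 members had a log2 fold change below 0, beside 48.6% of all tested genes. The members ranged from -3.84 for Zfp759 to 1.55 for Zfp428, and the smallest decrease past the threshold was -1.12. At an unadjusted p under 0.05 in edgeR, 109 members were lower and 5 higher, beside 18.6% and 12.3% of all tested genes. All 3 KO-labelled libraries lay below all 3 WT-labelled libraries in 119 members and above them in 9, beside 19.6% and 15.8% of all tested genes. DESeq2 called 70 members lower and 1 higher, beside 11% and 3.93% of its genes, and limma-voom called 44 and 0, beside 5.13% and 0.936%.

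The count of 55 rested on single libraries. Without KO replicate 3 it was 0 with 0 higher, beside 0% and 0.0161% of all tested genes. Without WT replicate 1 it was also 0 with 0 higher, beside 0% and 0%. Without KO replicate 2 it was 11 with 0 higher, beside 2.07% and 0.378%. Without WT replicate 3 it was 27 with 0 higher, beside 2.95% and 0.25%. Without KO replicate 1 it was 69 with 0 higher, beside 8.02% and 2.41%, and without WT replicate 2 it was 62 with 2 higher, beside 11.2% and 5.58%. No single gene named below as lower kept its call in the fits without KO replicate 3 or without WT replicate 1. The median log2 fold change of the members stayed between -0.93 and -0.70 in these 6 fits. In a bulk sample, fewer cells of a type and less RNA per cell cannot be told apart, and this applies to every decrease given here.

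The 10 members with the largest decreases among those called, with a mean of at least 1 CPM (counts scaled to the library total after TMM factors) and no overlap between the labels, are described by library. Zfp759, a KRAB gene on chromosome 13 with 19 fingers, had 0.442, 0.246 and 0.102 CPM in KO-labelled libraries, against 5.24, 2.66 and 4.04 CPM in WT-labelled libraries. These are 5, 3 and 1 counts in KO-labelled libraries and 93, 39 and 45 counts in WT-labelled libraries. Its log2 fold change was -3.84 (SE 0.51, adjusted p = 0.0157 by edgeR), the lowest of the 217. Every WT-labelled library held several times more than any KO-labelled library. Of the 10, Zfp759, Zfp677, Zfp40, Zfp948, Zfp62, Zfp942 and Zfp72 met the summed-count minimum through the WT-labelled libraries. Their KO-labelled counts alone would not have met it, so their fold changes and p-values describe genes chosen in this way. Zfp820, whose 89 counts put it outside the minimum, had 2, 1 and 1 counts in KO-labelled libraries, against 42, 22 and 21 counts in WT-labelled libraries. Zfp820 was named from earlier results of these data and is not separate evidence.

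Zfp677, Zfp40, Zfp948 and Zfp942 lie in 1 region of chromosome 17 and carry a KRAB box. Zfp677 had 0.884, 0.41 and 0.204 CPM in KO-labelled libraries, against 4.34, 2.46 and 2.06 CPM in WT-labelled libraries, and KO over WT was -2.53 on the log2 scale (SE 0.52, adjusted p = 0.0199 by edgeR). Zfp40 had 0.442, 0.328 and 1.12 CPM in KO-labelled libraries, against 5.41, 2.39 and 2.69 CPM in WT-labelled libraries, and KO over WT was -2.50 on the log2 scale (SE 0.52, adjusted p = 0.0207 by edgeR). For both genes WT replicate 1 was the highest library and the groups did not overlap. Zfp948 had 1.59, 1.15 and 1.53 CPM in KO-labelled libraries, against 10.4, 5.12 and 4.22 CPM in WT-labelled libraries, and KO over WT was -2.22 on the log2 scale (SE 0.41, adjusted p = 0.0168 by edgeR). Zfp942 had 4.07, 1.97 and 0.511 CPM in KO-labelled libraries, against 13.3, 9.96 and 6.82 CPM in WT-labelled libraries, and KO over WT was -2.18 on the log2 scale (SE 0.53, adjusted p = 0.0333 by edgeR). The KO-labelled libraries were close together for Zfp948 and far apart for Zfp942, with KO replicate 3 the lowest for Zfp942.

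The other 5 are on other chromosomes. Zfp979, a KRAB gene on chromosome 4, was the most abundant of the 10 per kilobase, with 14.7, 5.66 and 2.25 CPM in KO-labelled libraries, against 33.4, 29.3 and 36.1 CPM in WT-labelled libraries. Its log2 fold change was -2.12 (SE 0.52, adjusted p = 0.0366 by edgeR), and 24.6% of the 50-base words of its longest transcript also occur in other genes, so its reads may be divided among copies. Zfp62, with 25 fingers and no KRAB match, had 2.12, 3.53 and 2.55 CPM in KO-labelled libraries, against 20.2, 7.64 and 9.87 CPM in WT-labelled libraries, and KO over WT was -2.20 on the log2 scale (SE 0.40, adjusted p = 0.0168 by edgeR). Groups were well apart in both genes, although the spread lay in the KO-labelled libraries for Zfp979 and in the WT-labelled libraries for Zfp62. Zfp654, with 5 fingers and no KRAB match, had 4.25, 4.51 and 1.53 CPM in KO-labelled libraries, against 16.6, 11.5 and 16.5 CPM in WT-labelled libraries, and KO over WT was -2.10 on the log2 scale (SE 0.38, adjusted p = 0.0168 by edgeR). Zfp72, also without a KRAB match, had 1.33, 0.246 and 0.204 CPM in KO-labelled libraries, against 3.61, 1.71 and 2.42 CPM in WT-labelled libraries, and KO over WT was -2.10 on the log2 scale (SE 0.60, adjusted p = 0.0498 by edgeR). Zfp72 lay just inside the threshold, with KO replicate 1 near the lowest WT-labelled library. The tenth gene, Zfp638, is given with the RNA-binding members.

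**Figure D1:**
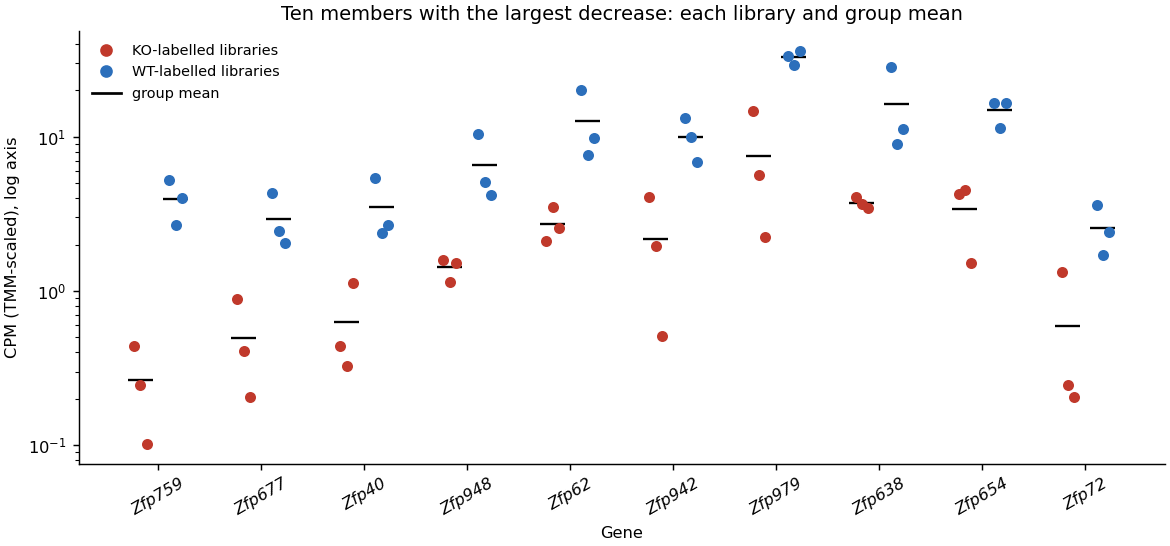
Scaled CPM on a log axis of the 10 Zfp members with the largest called decreases, with 1 point per library, KO-labelled libraries left of WT-labelled libraries, and a bar at each group mean. By the rule that chose them, the groups do not overlap in any of the 10, and Zfp759 has the widest gap, with 0.102 to 0.442 CPM in KO-labelled libraries against 2.66 to 5.24 CPM in WT-labelled libraries.

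The counts of decreases were set out by protein domain. A KRAB box was matched by a sequence pattern in 114 members, of which 39 were lower and 0 higher (34.2% lower, beside 7.52% lower and 1.63% higher of all tested genes), with a median log2 fold change of -1.03 and 107 members below 0. A SCAN domain without KRAB was matched in 8 members, of which 2 were lower, with a median of -0.83. The 95 members with neither had 14 lower (14.7%), 0 higher and a median of -0.30. The classes also differ in base composition, since the median GC content was 40.6% for KRAB members and 48.8% for members with neither domain. The difference between the classes was not tested, and a KRAB box outside the pattern would be missed. Members described below as without a KRAB box are those without a match to the pattern.

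The lowest medians were those of members with at least 11 fingers. The finger pattern occurred up to 30 times in a member, with a median of 10, and 5 members held none. Of the 23 members with 0 to 2 fingers 1 was lower (4.35%, below the 7.52% of all tested genes), with a median log2 fold change of -0.24. Of the 28 members with 3 to 5 fingers 4 were lower (14.3%), with a median of -0.61. The 64 members with 6 to 10 fingers had 13 lower (20.3%) and a median of -0.58. The 70 members with 11 to 15 fingers had 23 lower (32.9%) and a median of -1.0. The 32 members with at least 16 fingers had 14 lower (43.8%), a median of -1.21, and all 32 below 0. Across the 217 members Spearman's rho of log2 fold change was -0.44 with the number of fingers and 0.66 with GC content, as descriptions over genes that share the same 6 libraries. The linker motif, searched as ACNGGNGANAANCC on the sense strand of the coding sequence, occurred in 160 members (73.7%) and in 1.36% of 11025 other tested coding genes.

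Chromosome 17 carried the most called decreases. It held 29 members, of which 17 were lower (58.6%, beside 7.52% of all tested genes), with a median log2 fold change of -1.55. Chromosome 4 had 5 of 10 lower and a median of -1.55, and chromosome 13 had 6 of 17 lower and a median of -1.37. Chromosome 7 held the most members, 47, with 9 lower and a median of -0.81. None of the 15 members on chromosome 9 and none of the 9 on chromosome 15 passed the threshold, with medians of -0.75 and -0.29. A KRAB box was matched in 24 of the 29 on chromosome 17 and in 10 of the 15 on chromosome 9. The differences between chromosomes were not tested.

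**Figure D2:**
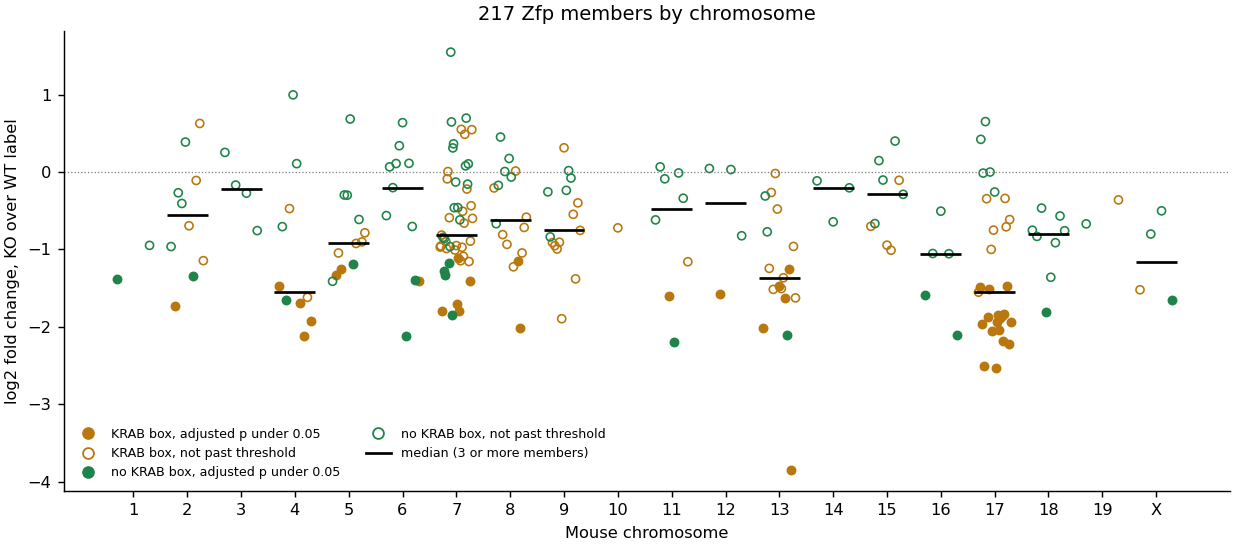
Log2 fold change of KO over WT label for the 217 Zfp members by chromosome, with filled points for an adjusted p under 0.05, colour for the KRAB box and a bar at the median where at least 3 members lie on a chromosome. Chromosome 17 has 17 filled points of 29 and chromosome 9 has 0 of 15.

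Neighbouring members were joined into a cluster where gaps were at most 1 Mb, which gave 21 clusters of at least 3 members, holding 121 members and 38 of the 55 decreases, beside 7.52% of all tested genes lower. The cluster from Zfp160 to Zfp213 on chromosome 17 held 17 members, 16 of them with a KRAB box, and 13 were lower, with a median log2 fold change of -1.84. It includes Zfp677, Zfp40, Zfp948 and Zfp942. The range within it was -2.53 to 0.42. The cluster from Zfp712 to Zfp273 on chromosome 13, which includes Zfp759, held 12 KRAB members with 5 lower and a median of -1.49. The 4 KRAB members from Zfp985 to Zfp933 on chromosome 4, which include Zfp979, had 3 lower and a median of -1.81. Some clusters held no called decrease. The 7 members from Zfp553 to Zfp629 on chromosome 7 had 0 lower and a median of 0.08. The 5 members from Zfp282 to Zfp775 on chromosome 6, none of which matched the KRAB pattern, had 0 lower and a median of 0.07. The 6 KRAB members from Zfp317 to Zfp846 on chromosome 9 had 0 lower and a median of -0.91. The differences between clusters were not tested.

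Reads of near-identical copies cannot be divided with certainty, since how reads with several matches were counted is not stated. Of the 217 members, 31 shared at least 10% of the 50-base words of their longest transcript with other genes and 98 shared none. Among the 186 members under 10%, 49 were lower (26.3%, beside 7.52% of all tested genes), with a median log2 fold change of -0.77. Among the 31 members at 10% or more, 6 were lower. For Zfp708, 100% of its words also occur in other genes, among which Gm28557 ranked first. Whether the counts of Zfp708 hold reads of other genes is not known.

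Transcript length and GC content moved with the fold change in the whole table. Over 11863 tested genes with a length, Spearman's rho of log2 fold change was -0.58 with longest transcript length and 0.39 with GC content. The members were slightly longer and poorer in GC than all tested genes, with a median length of 3738 bases against 3273 and a median GC content of 43.6% against 49.4%. Their median level was 4.02 CPM, against 10.7 CPM for all tested genes.

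Set beside other genes of similar length, the members had lower medians in every length decile but the first, and the gap was smallest in the eighth and the tenth deciles. In the fourth length decile 30 members had a median log2 fold change of -0.61 with 20% lower, against 0.21 and 2.08% for 1156 other genes. In the seventh decile 39 members had a median of -0.97 with 38.5% lower, against -0.17 and 8.16% for 1152 other genes. In the tenth decile 22 members had a median of -0.92 with 27.3% lower, against -0.78 and 24.7% for 1165 other genes. Over all 217 members, the median difference from the other genes of the same length decile was -0.57, with 171 members below 0. Other genes weighted to the members' length deciles had 8.25% lower, against 25.3% of the members.

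Matching on GC content as well narrowed the gap. The median difference from other genes of the same length and GC deciles was -0.48, with 162 of 217 members below 0, and other genes weighted in this way had 11.4% lower. For the 114 KRAB members the difference was -0.97 by length alone and -0.77 by length and GC, with 99 below 0. For the 103 members without a KRAB box it was -0.17 by length and -0.22 by length and GC, with 63 below 0. In the lowest GC decile 78 members had a median log2 fold change of -1.47 with 52.6% lower, against -0.53 and 20.3% for 1109 other genes.

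**Figure D3:**
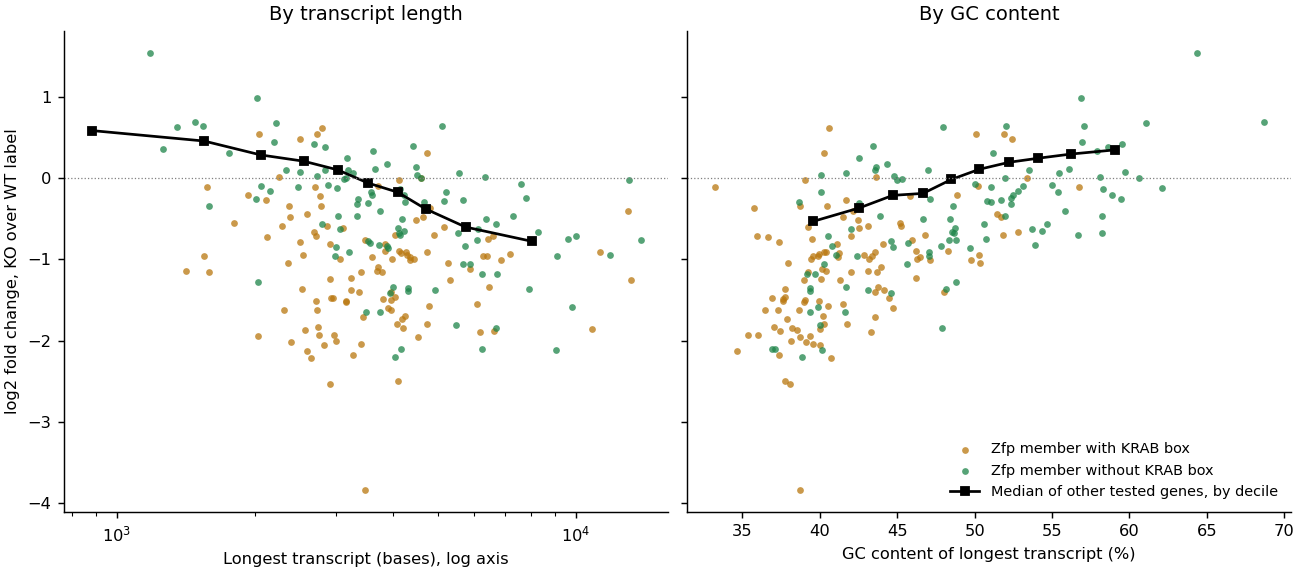
Log2 fold change of KO over WT label of each Zfp member against longest transcript length (left, log axis) and GC content (right), with squares at the median of other tested genes in each decile. Most KRAB members lie below the line for other genes of their length; the members approach it at the longest transcripts, where medians were -0.92 for members and -0.78 for other genes.

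A fit with an offset for length and GC in each library left no called decrease. With offsets from the longest transcript, 0 of 217 members were lower and 0 higher at an adjusted p under 0.05 in edgeR, beside 0% and 0.00829% of all tested genes. The smallest adjusted p among the members was 0.062 by edgeR, a value shared by several members, among them Zfp759, Zfp677 and Zfp51. The median log2 fold change of the members in that fit was -0.43, against 0.03 for all tested genes. At an unadjusted p under 0.05, 70 members were lower and 8 higher, beside 11.1% and 12% of all tested genes. All 55 decreases of the fit without offsets stayed below 0, from -3.33 for Zfp759 to -0.05, with a median of -1.14. Of the 55, 49 had an unadjusted p under 0.05 in edgeR. The 55 were chosen as decreases in these same 6 libraries, so their signs and p-values here are not a separate test. With offsets from the median transcript, 4 members were lower and 0 higher, beside 1.17% and 0.671% of all tested genes. The median with the longest-transcript offsets was -0.70 for KRAB members and -0.20 for members with neither domain. Whether length and GC stand for RNA quality, library making or expression was not tested.

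The members also differed by library. Their summed counts were 16263, 17672 and 12480 in KO-labelled libraries, against 39593, 28293 and 23789 in WT-labelled libraries. As a share of counts outside the mitochondrial genome they took 0.252%, 0.281% and 0.234% in KO-labelled libraries, against 0.469%, 0.364% and 0.429% in WT-labelled libraries. Mitochondrial genes took 39.1%, 54.3% and 56.5% of all counts in KO-labelled libraries, against 40.7%, 39.3% and 54.3% in WT-labelled libraries. The share of the members did not overlap between the labels, while the mitochondrial share did. The median log2 deviation of the members from their own mean was -0.29, -0.20 and -0.56 in KO-labelled libraries, against 0.46, 0.22 and 0.48 in WT-labelled libraries. KO replicate 3 was the lowest of the 6 libraries for 119 members, and WT replicate 1 was the highest for 94 members. No such count over all tested genes is given here, so these counts are not shown to be particular to the members. For other genes weighted to the same lengths, the medians were 0.01, 0.02 and -0.04 in KO-labelled libraries, against 0.05, 0.02 and 0.13 in WT-labelled libraries. Among KRAB members the medians were -0.30, -0.34 and -0.88 in KO-labelled libraries, against 0.69, 0.40 and 0.60 in WT-labelled libraries.

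**Figure D4:**
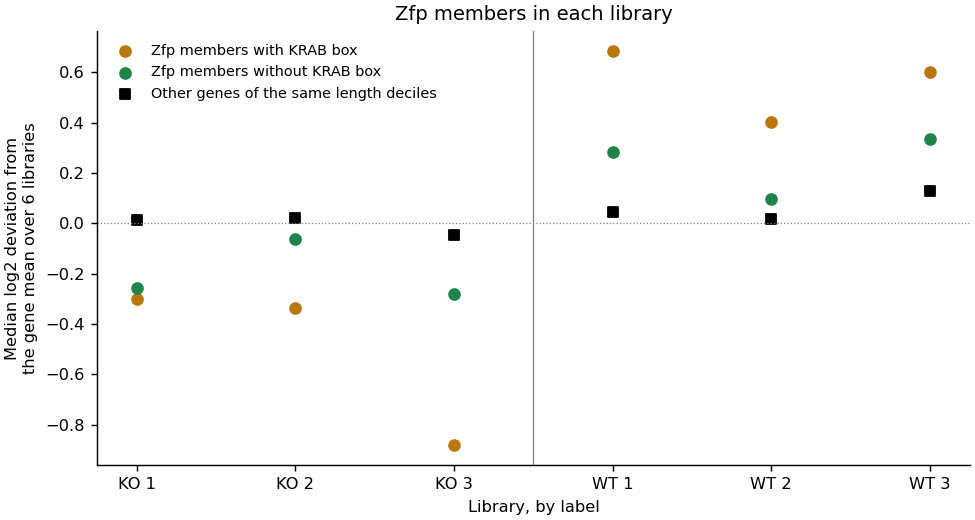
Median log2 deviation from each gene's mean over the 6 libraries, for Zfp members with a KRAB box, members without one and other genes of the same length deciles, with KO-labelled libraries on the left. KRAB members are lowest in KO replicate 3 at -0.88 and highest in WT replicate 1 at 0.69, while other genes of the same lengths stay between -0.04 and 0.13.

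The most abundant members per kilobase did not pass the threshold in either direction. Zfp207, a microtubule-binding protein of the mitotic spindle, was the highest per kilobase of the longest transcript. It had 99.6, 130 and 124 CPM in KO-labelled libraries, against 92.6, 111 and 134 CPM in WT-labelled libraries, and KO over WT was 0.07 on the log2 scale (SE 0.23), which turned to -0.19 when only library totals were used for scaling. Zfp91, a ubiquitin ligase of the noncanonical NF-kappaB pathway, had 42.5, 66.1 and 88.5 CPM in KO-labelled libraries, against 124, 66.5 and 122 CPM in WT-labelled libraries, and KO over WT was -0.67 on the log2 scale (SE 0.32, adjusted p = 0.175 by edgeR). The groups overlapped in both genes. Zfp931, a KRAB gene on chromosome 2, had 50.4, 33 and 25.2 CPM in KO-labelled libraries, against 31.5, 53 and 32.7 CPM in WT-labelled libraries, with a log2 fold change of -0.11 (SE 0.31) that was above 0 in the fits with offsets. Of the 50-base words of Zfp931, 16.7% also occur in other genes. Zfp637 averaged 26.4 ± 2.84 CPM in KO-labelled libraries and 17 ± 5.43 CPM in WT-labelled libraries (SD, n = 3 each), and Zfp706 averaged 59 ± 6.2 CPM in KO-labelled libraries and 44.7 ± 6.01 CPM in WT-labelled libraries. Zfp639 averaged 45.6 ± 7.28 CPM in KO-labelled libraries and 38.3 ± 9.44 CPM in WT-labelled libraries. Zfp637 and Zfp706 were higher in every KO-labelled library than in any WT-labelled library, with log2 fold changes of 0.64 (SE 0.27) and 0.40 (SE 0.22), neither past the threshold.

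Among members at a mean of at least 10 CPM, the smallest fold changes were those of Zfp703, Zfp672, Zfp868, Zfp410, Zfp277 and Zfp207. Zfp672, with 13 fingers, averaged 17.3 ± 2.3 CPM in KO-labelled libraries and 17.4 ± 2.08 CPM in WT-labelled libraries. Zfp868, a KRAB gene on chromosome 8, averaged 13.9 ± 2.74 CPM in KO-labelled libraries and 13.8 ± 2.69 CPM in WT-labelled libraries. Zfp703, Zfp410 and Zfp277 averaged 15.9 to 17.8 CPM in KO-labelled libraries and 15.4 to 17.7 CPM in WT-labelled libraries. The groups overlapped in each of these genes.

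Of 9 members that act on RNA or ribosomes, 1 was lower and 0 higher, beside 7.52% and 1.63% of all tested genes, with a median log2 fold change of -0.30. Zfp638, a protein that binds nucleic acids and cooperates with C/EBP factors in adipocyte differentiation in mouse cells, had 4.07, 3.69 and 3.47 CPM in KO-labelled libraries, against 28.4, 9.01 and 11.3 CPM in WT-labelled libraries. Its log2 fold change was -2.12 (SE 0.41, adjusted p = 0.0185 by edgeR), and its longest transcript had 9033 bases. Zfp638 was nearly level across the KO-labelled libraries and highest in WT replicate 1. Zfp593, whose yeast counterpart acts in assembly of the large ribosomal subunit, had 13.9, 11 and 15.9 CPM in KO-labelled libraries, against 6.37, 9.35 and 4.67 CPM in WT-labelled libraries, and KO over WT was 1.00 on the log2 scale (SE 0.31, adjusted p = 0.062 by edgeR). Its groups did not overlap, but it missed the threshold. Zfp106, an RNA-binding protein needed by motor neurons and muscle, had 11.3, 17 and 21.5 CPM in KO-labelled libraries, against 44.6, 18.6 and 33.8 CPM in WT-labelled libraries, and KO over WT was -0.96 on the log2 scale (SE 0.34, adjusted p = 0.0886 by edgeR). Zfp598, the ubiquitin ligase that marks collided ribosomes, Zfp622, which acts in ribosome assembly, Zfp326, which acts in splicing, Zfp346, which binds double-stranded RNA, and Zfp830 had log2 fold changes of -0.34 to 0.15, none past the threshold. The sign turned for Zfp326 with offsets and for Zfp622 with scaling by library totals only.

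KRAB-free transcription and chromatin factors held 5 decreases and 0 increases among 28 tested members, beside 7.52% and 1.63% of all tested genes, with a median log2 fold change of -0.37. Zfp148, a factor of GC-rich promoters, had 12.1, 17.2 and 10 CPM in KO-labelled libraries, against 44.8, 32 and 41.4 CPM in WT-labelled libraries, and KO over WT was -1.58 on the log2 scale (SE 0.27, adjusted p = 0.016 by edgeR). Its relative Zfp281, which binds similar GC-rich sites, had 3.63, 5.17 and 5.11 CPM in KO-labelled libraries, against 16.2, 10.1 and 9.87 CPM in WT-labelled libraries, and KO over WT was -1.38 on the log2 scale (SE 0.31, adjusted p = 0.0235 by edgeR). Both were lower in every KO-labelled library. Zfp644, a partner of the histone methyltransferases Ehmt1 and Ehmt2, averaged 8.09 ± 1.82 CPM in KO-labelled libraries and 18.4 ± 3.39 CPM in WT-labelled libraries, and KO over WT was -1.18 on the log2 scale (SE 0.28, adjusted p = 0.0278 by edgeR). Zfp800 averaged 3.7 ± 0.734 CPM in KO-labelled libraries and 9.74 ± 3.6 CPM in WT-labelled libraries, and KO over WT was -1.39 on the log2 scale (SE 0.35, adjusted p = 0.0346 by edgeR). Zfp770 averaged 7.73 ± 4.08 CPM in KO-labelled libraries and 19.8 ± 1.82 CPM in WT-labelled libraries, and KO over WT was -1.35 on the log2 scale (SE 0.38, adjusted p = 0.0483 by edgeR). The 5 had longest transcripts of 4300 to 9830 bases, and with length and GC offsets their log2 fold changes lay between -0.73 and -0.23. Zfp143, an activator at many promoters, averaged 6.23 ± 1.43 CPM in KO-labelled libraries and 11.2 ± 1.43 CPM in WT-labelled libraries (edgeR adjusted p = 0.0729).

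Of 5 tested members with a reported role in adipocytes, only Zfp638 passed the threshold, beside 7.52% of all tested genes lower, and the median log2 fold change was -0.64. Zfp407, a cofactor of PPAR gamma targets in mouse adipocytes, had 0.531, 1.56 and 1.53 CPM in KO-labelled libraries, against 3.67, 2.32 and 3.32 CPM in WT-labelled libraries, and KO over WT was -1.36 on the log2 scale (SE 0.44, adjusted p = 0.0681 by edgeR). Zfp467, which favours fat over bone in marrow stromal cells, had 9.91, 9.43 and 11.5 CPM in KO-labelled libraries, against 7.22, 9.28 and 7.9 CPM in WT-labelled libraries, and KO over WT was 0.34 on the log2 scale (SE 0.26), which was -0.11 with the median-transcript offsets. The groups of neither gene overlapped. Zfp395 and Zfp30 had log2 fold changes of -0.64 (SE 0.41) and -0.09 (SE 0.28), with overlapping groups, and that of Zfp30 was 0.24 with the median-transcript offsets.

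None of the 6 tested KRAB members known from imprinting or retroelement silencing passed the threshold, beside 7.52% lower and 1.63% higher of all tested genes. At an unadjusted p under 0.05 in edgeR, 4 of the 6 were lower. Beside this stand 79 of all 114 KRAB members and 18.6% of all tested genes. The median log2 fold change of the 6 was -0.90. Zfp445, which protects imprints together with Zfp57, had 0.796, 1.8 and 1.74 CPM in KO-labelled libraries, against 9.36, 1.71 and 5.03 CPM in WT-labelled libraries, and KO over WT was -1.89 on the log2 scale (SE 0.56, adjusted p = 0.054 by edgeR). WT replicate 2 lay inside the KO-labelled range for Zfp445. Zfp708 had a KO over WT value of -1.37 on the log2 scale (SE 0.44, adjusted p = 0.0673 by edgeR). Zfp568, a repressor of a placental Igf2 transcript, had -1.01 (SE 0.40, adjusted p = 0.117 by edgeR), and Zfp809, which silences retroviruses in stem cells, had -0.55 (SE 0.31, adjusted p = 0.244 by edgeR). Zfp932 and Zfp961 had log2 fold changes of -0.78 (SE 0.39) and -0.72 (SE 0.29). Of the 50-base words of Zfp932, 45.2% also occur in other genes, as do 100% of those of Zfp708. The values of these 2 genes may thus include reads of copies.

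A list of corepressor and heterochromatin genes, which includes partners of KRAB proteins, was described without a test of the list. Of its 25 tested genes 3 were lower and 0 higher, beside 7.52% and 1.63% of all tested genes. At an unadjusted p under 0.05 in edgeR, 9 were lower and 0 higher, beside 18.6% and 12.3% of all tested genes. The median log2 fold change was -0.59. Fam208a, a subunit of the HUSH silencing complex, fell by 1.89 on the log2 scale (SE 0.35, adjusted p = 0.0168 by edgeR), with 11.3, 6.40 and 4.39 CPM in KO-labelled libraries, against 35.3, 23.8 and 23.0 CPM in WT-labelled libraries. Morc3 and Smarcad1, a pair of ATPases of chromatin, fell by 1.57 (SE 0.36, adjusted p = 0.0274 by edgeR) and 1.48 (SE 0.35, adjusted p = 0.0291 by edgeR). Trim28, the corepressor that KRAB boxes bind, had 24.2, 31.7 and 30.4 CPM in KO-labelled libraries, against 19.2, 20.5 and 26.4 CPM in WT-labelled libraries, and Setdb1 had 3.36, 5.25 and 2.14 CPM in KO-labelled libraries, against 9.42, 4.50 and 8.88 CPM in WT-labelled libraries. Neither passed the threshold, with log2 fold changes of 0.39 (SE 0.24) for Trim28 and -1.07 (SE 0.39) for Setdb1.

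Zinc finger genes under other names were counted in the same fit. Of 30 tested genes with a KRAB box and at least 3 fingers under other symbols, 10 were lower and 0 higher (33.3% lower, beside 7.52% lower and 1.63% higher of all tested genes), with a median log2 fold change of -1.16. Of 129 with at least 3 fingers and no KRAB box, 21 were lower and 1 higher, with a median of -0.53. The Zbtb genes, which carry a POZ domain, had 5 of 32 lower and a median of -0.80, the Zscan and Zkscan genes had 3 of 15 lower and a median of -0.53, and the Klf factors had 0 of 11 lower and a median of -0.49. With length and GC offsets the medians were -0.75 for the other KRAB genes, -0.15 for those with fingers alone and -0.25 for the Zbtb genes.

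Markers of other cell types were read in the same libraries. Their calls are read beside 7.52% lower and 1.63% higher of all tested genes. The 6 macrophage markers summed to 211 to 477 CPM in KO-labelled libraries and 92.5 to 180 CPM in WT-labelled libraries, and most of that sum was Lyz2, with 197 to 458 CPM in KO-labelled libraries and 68.2 to 161 CPM in WT-labelled libraries. Lyz2 was called higher and Cd163 lower, and the median log2 fold change of the list was -0.11. The 4 erythroid markers summed to 1178 to 3413 CPM in KO-labelled libraries and 358 to 1338 CPM in WT-labelled libraries, with Hba-a1 and Alas2 called higher. The 6 skeletal muscle markers, of which 5 were tested, summed to 18.1 to 61.8 CPM in KO-labelled libraries and 21.3 to 614 CPM in WT-labelled libraries, with Mybpc2 called lower. WT replicate 3 alone stood apart in this list: Tnnt3 had 1.86 to 8.28 CPM in KO-labelled libraries, against 3.78, 6.01 and 173 CPM in WT-labelled libraries. Without that library 27 Zfp members were lower, beside 2.95% of all tested genes. The 6 endothelial markers had 2 lower, the 5 mural markers had 2 higher, Acta2 and Tagln, and the 5 stromal markers had 0 called. The mural markers summed to 439 to 883 CPM in KO-labelled libraries and 812 to 1263 CPM in WT-labelled libraries. Most of that sum was Rgs5, which was lower in every KO-labelled library without passing the threshold, at -0.98 on the log2 scale (SE 0.33, adjusted p = 0.077 by edgeR). The 8 brown adipocyte markers summed to 22295 to 30735 CPM in KO-labelled libraries and 18686 to 26774 CPM in WT-labelled libraries, mainly from Fabp4. Cox7a1 was called higher at 1.02 on the log2 scale (adjusted p = 0.0455 by edgeR). Ucp1 was higher in every KO-labelled library without passing the threshold, at 0.66 on the log2 scale (SE 0.26, adjusted p = 0.113 by edgeR). The median log2 fold change of these 8 markers was 0.18. No marker of these lists was at 0 in all 6 libraries, and the part of these cell types in the Zfp values was not tested.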

How the data were processed

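Mature brown fat of 3 KO-labelled and 3 WT-labelled pools was measured by mRNA sequencing. The authors deposited 1 table of raw, unnormalized counts by Ensembl gene for each library. The submitters' processing notes name STAR 2.5.4b and mm9. The sources used here give no counting program, strand setting or rule for multiply mapped reads, so overlapping and antisense genes cannot be told apart. No libraries held identical values. Nothing in the labels says how pools were made beyond 3 mice each, and p-values measure the spread between pools. Counts were tested with edgeR 4.0.16 (robust quasi-likelihood, TMM, filterByExpr with a minimum count of 10 and total of 15, Benjamini-Hochberg over 12068 genes), in R 4.3.3, with DESeq2 1.42.0 and limma 3.58.1 as alternatives and smooth offsets from mgcv 1.9.3. All tests were two-sided and the fit was tested on simulated data. Symbols, lengths, GC content and sequences came from GENCODE M21 on GRCm38 by gene identifier, matching 32897 of 37620; no coordinates are printed because the files use mm9. Named genes were the called members with the largest changes and a mean of at least 1 CPM without overlap, the 6 highest per kilobase, the 6 with the smallest change at 10 CPM or more, those at the count minimum, the role lists, and Zfp759 and Zfp820; Zfp428 was added after its value was seen. The members and lists were chosen with earlier results of these data known, which already showed Zfp759, Zfp820 and the length trend, so these are not independent evidence. Fingers, KRAB boxes and SCAN domains were found with sequence patterns on the translated transcripts.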

Additional observations from a re-analysis of the deposited data

How the results depend on the processing

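Against 55 Zfp members lower and 0 higher, the number lower was 0 with offsets for longest transcript length and GC, 0 with those offsets and the replicate block, 4 with offsets from the median transcript, 0 at an adjusted p under 0.01, and 36 among the 114 members with a summed count of at least 300. It ranged from 0 to 69, and the number higher from 0 to 2, with each library left out. Other scalings, filters, the legacy fit and removal of mitochondrial genes gave 49 to 74 lower, and 41 members were called lower in all of these, in DESeq2 and in limma-voom. DESeq2 called 1 member higher, as did the replicate block. The median log2 fold change, -0.78, was -0.43 with the longest-transcript offsets, -0.45 with them and the block, -0.47 with the median-transcript offsets and -1.06 with total counts only, which moves the median of all genes to -0.23. The labels state no pairing by replicate number, and correlations of same-numbered deviations were 0.145, -0.534 and 0.0318. With 3 libraries per label these values cannot exclude a pairing. The replicate block gave 60 lower and a median of -0.81. Among the 38 members followed through every setting, the sign turned for Zfp931 (0.27 with the longest-transcript offsets and with the block added, 0.57 with the median-transcript offsets, and -0.42 to 0.18 with 1 library left out), Zfp326 (0.60, 0.47 and 0.37 in those 3 offset fits), Zfp30 (0.010 with the longest-transcript offsets and the block, 0.24 with the median-transcript offsets), Zfp467 (-0.11 with the median-transcript offsets), and with total counts only for Zfp207 (-0.19, and -0.061 to 0.19 with 1 library left out), Zfp639 (-0.0088) and Zfp622 (-0.13). Of the other members named with a level or count, Zfp703 (-0.20), Zfp672 (0.17), Zfp697 (0.03), Zfp704 (0.03) and Zfp709 (0.04) also turned with the longest-transcript offsets. The cause of these changes was not tested. Limits are the 3 pools per label, the few counts of many members, with a median level of 4.02 CPM, and the transcript models of a later annotation than that counted.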

Other observations

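Of the 127 Zfp symbols under the summed count of 100, 43 still passed the filter for testing. Among these 43, 5 were lower (11.6%) and 0 higher in the KO-labelled libraries, beside 7.52% and 1.63% of all tested genes. These calls used an adjusted p under 0.05 in edgeR, and the median level of the 43 was 0.94 CPM. Their median log2 fold change was -0.52, and 33 were below 0, beside 48.6% of all tested genes. At an unadjusted p under 0.05 in edgeR, 14 were lower and 0 higher, beside 18.6% and 12.3%. All KO-labelled libraries lay below all WT-labelled libraries in 19 and above them in 0, beside 19.6% and 15.8%. Within the KRAB members, Spearman's rho of log2 fold change with GC content was 0.48 over 114 genes and with transcript length -0.09. Within the members without a KRAB box the values were 0.58 with GC content and -0.49 with length over 103 genes.

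The KRAB genes under other symbols include several with large decreases. Zfp729b had 15, 26 and 14 counts in KO-labelled libraries, against 206, 88 and 96 counts in WT-labelled libraries. Its neighbour in name Zfp729a had 16, 15 and 8 counts in KO-labelled libraries, against 137, 64 and 51 counts in WT-labelled libraries. The KRAB gene 2610008E11Rik had 44, 32 and 11 counts in KO-labelled libraries, against 310, 150 and 113 counts in WT-labelled libraries. These 3 genes were among the 10 lower of the 30 tested, their groups did not overlap, and they were named after their values were seen.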
